A study of Caenorhabditis elegans with 2 samples.

Results

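The nuclear-encoded genes of the mitochondrial respiratory chain were followed through a map of FOS-1 occupancy in Caenorhabditis elegans. They were taken by name: protein-coding genes of chromosomes I to V and X called nuo-, nduf-, cox-, atp-, ucr-, sdha-, sdhb- or sdhd-, together with gas-1, mev-1, isp-1, cyc-1 and lpd-5. The rule found 46 genes among 19973, and of these 46 genes 24 or 52.2% (95% Wilson interval 38.1 to 65.9) had a FOS-1 peak in their promoter, against 23.4% of all 19973 genes. A gene was counted when the summit of a peak lay between 1000 bp upstream and 250 bp downstream of one of its starts. The map came from ChIP-seq against an eGFP fusion of FOS-1, a basic leucine zipper factor of the Fos family, in strain OP304, which carries the allele unc-119(ed3) on chromosome III and the integrated transgene wgIs304. Whole L2 larvae of pooled sex were used, in 2 biological replicates of 1 group, so no comparison between conditions can be made. The tagged protein came from a transgene, and how many cells held it at a promoter cannot be told apart from how strongly it was held in each.

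The respiratory chain passes electrons from NADH through complex I, or from succinate through complex II, to ubiquinone, then through complex III and cytochrome c to complex IV, where oxygen is reduced to water. Complexes I, III and IV pump protons across the inner membrane, and complex V, the ATP synthase, uses that gradient to make ATP. A few core subunits are encoded in the mitochondrial genome and the others in the nucleus, so their supply depends on nuclear promoters. In C. elegans, mutants of mev-1, gas-1, isp-1 and nuo-6 are classic models of altered lifespan and oxygen sensitivity.

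The sequences around 9 of the 24 summits are given first, so that the sequence results can be read against them. Each line gives the 101 bases centred on a summit, 5′ to 3′ on the strand of the gene, from the RefSeq genome of the assembly WBcel235 (ce11). Shown are the strongest peak of each complex except complex V, and a second peak each of complexes II and IV. From complex III, ucr-2.2 and ucr-1 are shown as well. For complex V atp-2 (signal 114) is shown, although atp-1 (191) and atp-3 (182) were stronger. In complex III cyc-1 (114) and isp-1 (60.1) were stronger than ucr-1 (41.7) but are left out. Only ucr-2.1 of the 9 has no capitals, while windows left out, such as those of isp-1, cox-14 and sdhd-1, hold no marked word either. The 9 windows thus do not show how frequent the marked words are. Capitals mark 3 words of 6 bases discussed with the sequence results (AAACGC, then GCCAAA and also GGCGCA, on both strands) and, in ucr-1 alone, the pattern GACGCAGA, read on the other strand.
nuo-1 (chrII:11097512-11097612, plus strand): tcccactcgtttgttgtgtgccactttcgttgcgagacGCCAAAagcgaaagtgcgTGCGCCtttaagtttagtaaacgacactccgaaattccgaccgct
mev-1 (chrIII:10334085-10334185, plus strand): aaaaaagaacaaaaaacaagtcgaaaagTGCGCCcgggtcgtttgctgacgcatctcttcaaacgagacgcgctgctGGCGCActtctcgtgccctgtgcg
sdha-1 (chrX:8546178-8546278, minus strand): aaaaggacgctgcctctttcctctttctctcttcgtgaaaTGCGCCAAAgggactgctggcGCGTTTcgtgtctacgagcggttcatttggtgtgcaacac
ucr-2.1 (chrX:12018064-12018164, plus strand): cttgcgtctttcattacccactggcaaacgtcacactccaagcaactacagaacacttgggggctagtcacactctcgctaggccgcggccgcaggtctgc
ucr-2.2 (chrX:15173648-15173748, plus strand): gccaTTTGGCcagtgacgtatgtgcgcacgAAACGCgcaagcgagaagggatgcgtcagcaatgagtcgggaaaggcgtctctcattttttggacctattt
ucr-1 (chrIII:5591905-5592005, plus strand): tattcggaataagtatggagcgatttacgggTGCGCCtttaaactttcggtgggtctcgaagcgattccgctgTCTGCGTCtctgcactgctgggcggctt
cox-5A (chrIII:12905143-12905243, plus strand): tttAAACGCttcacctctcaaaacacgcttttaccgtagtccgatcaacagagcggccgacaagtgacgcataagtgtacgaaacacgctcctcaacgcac
cox-6B (chrIII:2785986-2786086, plus strand): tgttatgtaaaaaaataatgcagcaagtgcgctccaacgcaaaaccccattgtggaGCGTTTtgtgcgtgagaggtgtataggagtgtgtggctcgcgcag
atp-2 (chrIII:5228112-5228212, plus strand): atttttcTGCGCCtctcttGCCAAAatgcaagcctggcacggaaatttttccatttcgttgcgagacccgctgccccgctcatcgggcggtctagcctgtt

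The peaks were those of the list that the authors filtered by IDR, the irreproducible discovery rate, which is low for calls of similar rank in both replicates. It held 7446 peaks with signal values from 33.9 to 702. The signal value is the value that the authors' peak caller gave a call, and it ranks calls within 1 list only. The relaxed lists, which also hold weak calls, held 28259 calls for the pooled data, 29339 for replicate 1 and 28938 for replicate 2. The 24 members had 24 distinct peaks, 1 each. Their median signal was 84.9, with a range of 36.4 to 406, beside a median of 67.6 over the 4681 genes with a promoter peak. Among the members' peaks 11 or 45.8% were in the fifth of highest signal of all IDR peaks, against 20.6% of the 4222 promoter peaks, while 3 were in the fifth of lowest signal. No test was made of these differences, since the genes were chosen with results of these data known.

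**Figure D1:**
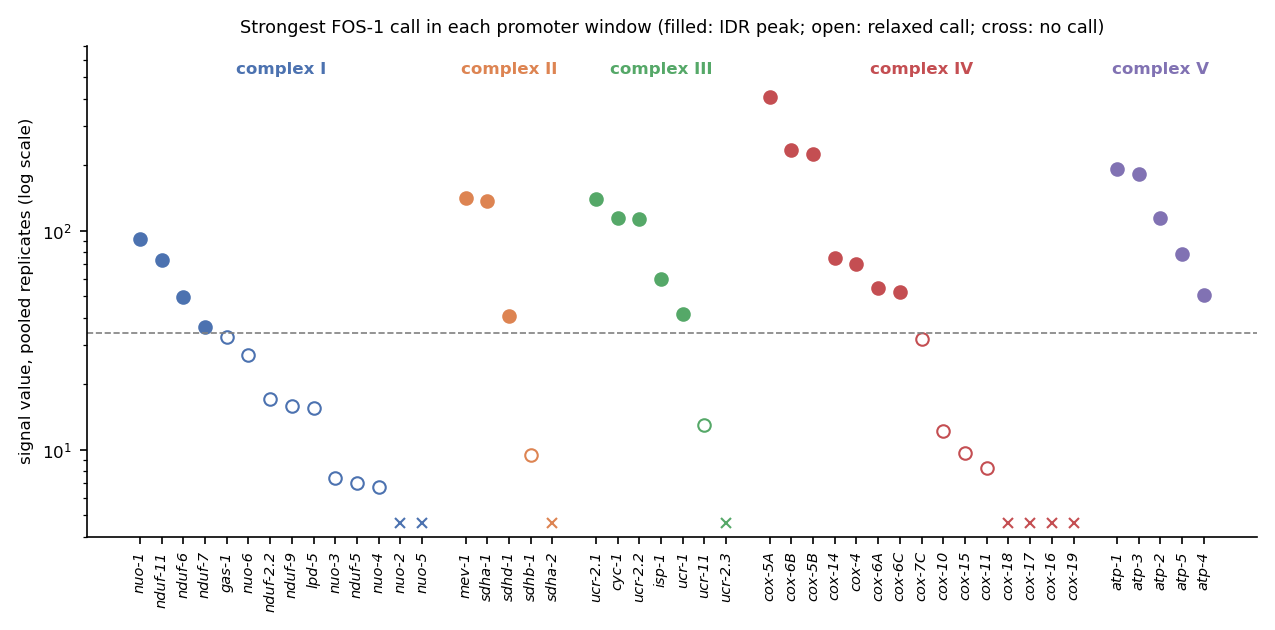
Signal value of the strongest pooled call in the promoter window of each of the 46 genes, on a log scale, by complex. Filled points are IDR peaks, open points relaxed calls only, crosses genes without a pooled call, and the dashed line is the lowest signal of an IDR peak, 33.9. All 5 genes of complex V under the name rule are filled, while most genes of complex I are open.

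Complex I, the NADH dehydrogenase through which most electrons enter, had the smallest share of the 5 complexes. An IDR peak was found at 4 of 14 genes or 28.6% (11.7 to 54.6), close to the 23.4% of all genes, with a median signal of 61.6. The strongest was at nuo-1, which encodes the subunit that binds NADH and the flavin. Its peak (chrII:11097390-11097733) had a pooled signal of 91.8 at rank 2029, with 55.6 in replicate 1 and 37.4 in replicate 2, and its summit lay 275 bp upstream of the start. nduf-11 (chrII:11345645-11345988) had a pooled signal of 73.5, with 47.6 and 24.5 in replicates 1 and 2, at 197 bp upstream. nduf-6 (chrI:7090194-7090537) had a pooled signal of 49.8, with 29.5 in replicate 1 and 20.9 in replicate 2, at 374 bp upstream. nduf-7, which encodes a core iron-sulfur subunit, had the lowest pooled signal of all members with a peak, 36.4. Of these 4 genes nuo-1 alone was above the members' median signal of 84.9, and each other complex held at least 1 peak of higher signal than nuo-1.

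Among the 10 genes of complex I without an IDR peak were some for core subunits, namely gas-1 with its paralog nduf-2.2, nuo-2 and nuo-5. The remaining genes were nuo-3, nuo-4, nuo-6, nduf-5, nduf-9 and lpd-5. Weak calls were present at most of them: with all relaxed pooled calls 12 of 14 genes of complex I had one, and 38 of all 46 members or 82.6% (69.3 to 90.9), against 46.6% of all genes. Because the rule takes genes by name, subunits called ndua-, ndub-, nduc-, ndus- or nduv- fall outside it. Of 19 such genes, a list added after the gene models were seen, 8 or 42.1% (23.1 to 63.7) had a peak. The strongest of them, nduc-2, has its start downstream of that of cox-6B on the same strand, and the peak counted for it is that of cox-6B, 816 bp upstream of nduc-2.

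Complex II, which oxidises succinate and belongs to the citric acid cycle as well, had a peak at 3 of 5 genes (95% interval 23.1 to 88.2%). mev-1, the gene for the cytochrome b subunit, had a pooled signal of 141 at rank 649 (chrIII:10334079-10334222), with 95.8 in replicate 1 and 46.3 in replicate 2. Its summit lay 142 bp upstream of the nearest start of mev-1 and 117 bp upstream of jmjd-4 on the other strand. sdha-1, the gene for the flavoprotein subunit that carries the active site, was nearly as high, with a pooled signal of 136 at rank 764 (chrX:8546137-8546304), 84.5 in replicate 1 and 50.6 in replicate 2. That summit lay 207 bp upstream of sdha-1 and within 250 bp of the annotated snoRNA gene D2021.6. The membrane anchor gene sdhd-1 was weaker, with a pooled signal of 40.6 at rank 6339 (chrII:11049892-11050235), 25.8 in replicate 1 and 14.7 in replicate 2. The iron-sulfur subunit gene sdhb-1 had a relaxed call alone, of signal 9.43, and at sdha-2, a paralog of sdha-1, no pooled call was found. Of the paralogous flavoprotein genes, then, sdha-1 had a strong peak and sdha-2 had none.

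Complex III, which hands electrons from ubiquinol to cytochrome c, had a peak at 5 of 7 genes (71.4%, 35.9 to 91.8), with a median signal of 112. ucr-2.1, which encodes a core protein, was the highest, with a pooled signal of 139 at rank 697 (chrX:12018107-12018203), 105 in replicate 1 and 31.6 in replicate 2. cyc-1, the gene for cytochrome c1, had a pooled signal of 114 (chrI:8024702-8024811), with 67.4 and 48.8 in replicates 1 and 2, at 316 bp upstream. ucr-2.2, a paralog of ucr-2.1, had a pooled signal of 112 (chrX:15173627-15173782), with 84.6 and 30.8, at 206 bp upstream. cyc-1 and ucr-2.2 thus had nearly the same pooled signal, although cyc-1 was the lower of them in replicate 1 and the higher in replicate 2.

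isp-1, which encodes the Rieske iron-sulfur protein, had a pooled signal of 60.1 (chrIV:8136113-8136456), with 52.0 in replicate 1 at rank 2955 and 8.05 in replicate 2. In replicate 2 that call had rank 10125, outside the 7446 strongest. ucr-1, the gene for the other core protein, had a pooled signal of 41.7 (chrIII:5591783-5592126), with 18.9 in replicate 1 at rank 8986 and 21.0 in replicate 2 at rank 3659. Of the 24 peaks it was the only one with a lower signal value in replicate 1 than in replicate 2. A further paralog, ucr-2.3, had no call in any relaxed list, and ucr-11 had a weak pooled call of 12.9 in its window.

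Complex IV, cytochrome c oxidase, gave the strongest peaks, and its genes are given as structural subunits and as factors that assemble it. In all 7 of 15 genes had a peak (46.7%, 24.8 to 69.9). Of the 7 genes for subunits 6 had an IDR peak (85.7%, 48.7 to 97.4), namely cox-4, cox-5A, cox-5B, cox-6A, cox-6B and cox-6C, with a median signal of 148. Of the 8 genes for assembly factors 1 had a peak (12.5%, 2.24 to 47.1), cox-14, and this interval includes the 23.4% of all genes. For these assembly factors 4 of 8 (50%) had a relaxed call, near the 46.6% of all genes, against 7 of 7 subunits. The difference between these lists was not tested. A gene on the same strand ended within 500 bp upstream of cox-11, cox-15, cox-17, cox-18 and cox-19, but not of any subunit gene. In such rows peaks were less frequent over all genes too, as given below. A separate list of 8 assembly factors under other names, not limited to complex IV, had a peak at 3 (37.5%, 13.7 to 69.4). It leaves out sco-1 and sft-1, which are counted in another list below. Of these sco-1 had a peak with a signal of 140, and sft-1 had none.

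cox-5A had the highest signal of all members and rank 11 among the 7446 peaks. The pooled signal was 406 (chrIII:12905073-12905310), with 275 in replicate 1 and 129 in replicate 2, and the call had rank 11 in each replicate as well. Its summit lay 298 bp upstream of the start and in the window of no other gene. cox-6B followed with a pooled signal of 232 at rank 108 (chrIII:2785951-2786137), 146 in replicate 1 and 82.2 in replicate 2. A further transcript of cox-6B is annotated to start far upstream, and the peak lay 166 bp upstream of the start at position 2786202, so this gene is not counted when only the outermost start is used. cox-5B had a pooled signal of 225 at rank 120 (chrI:9788619-9788810), with 155 and 69.7 in replicates 1 and 2, at 31 bp upstream. These 3 genes held the highest signals among all 24 members.

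The other peaks of complex IV were weaker. cox-14 had a pooled signal of 75.05, cox-4 of 70.6, cox-6A of 54.7 and cox-6C of 52.2. The summit at cox-6A was the one farthest from its gene, 762 bp upstream and within 250 bp of the annotated snRNA gene F54D8.7, and the summit in replicate 1 lay 182 bp away from the pooled one. The subunit gene cox-7C missed the IDR list narrowly, with a relaxed pooled signal of 31.9 at rank 7857. The assembly factors without an IDR peak were cox-10 and cox-15, which make haem A, cox-11, cox-17 and cox-19, which handle copper, cox-18, an insertase of the inner membrane, and cox-16.

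Complex V, the ATP synthase, had an IDR peak at all 5 genes named atp- (100%, 56.6 to 100), with signals from 50.8 to 191 and a median of 114. Subunits and regulators of the ATP synthase under other names fall outside the rule. Of those listed below, asb-2, asg-1, asg-2 and mai-1 had a peak, and asb-1, hpo-18 and mai-2 had none. atp-1, which encodes the alpha subunit, had a pooled signal of 191 at rank 240 (chrI:12652178-12652375), with 124 in replicate 1 and 66.5 in replicate 2. Its summit was the only one past a start, 2 bp downstream. atp-3, the gene for the subunit of the stator that confers oligomycin sensitivity, had a pooled signal of 182 at rank 286 (chrI:5429860-5430011), with 129 and 51.8, at 62 bp upstream. atp-2, the gene for the catalytic beta subunit, had a pooled signal of 114 at rank 1207 (chrIII:5228124-5228229), with 76.3 and 38.3, at 255 bp upstream. The stator genes atp-5 and atp-4 were weaker, at 78.0 and 50.8. The share for complex V and that for complex I had intervals that narrowly failed to overlap, though the groups are small and the difference was not tested. With no bases downstream of the start, complex V had 4 of 5 genes and complex I had 4 of 14. The interval for 4 of 5 genes, 37.6 to 96.4%, overlaps that of complex I.

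**Figure D2:**
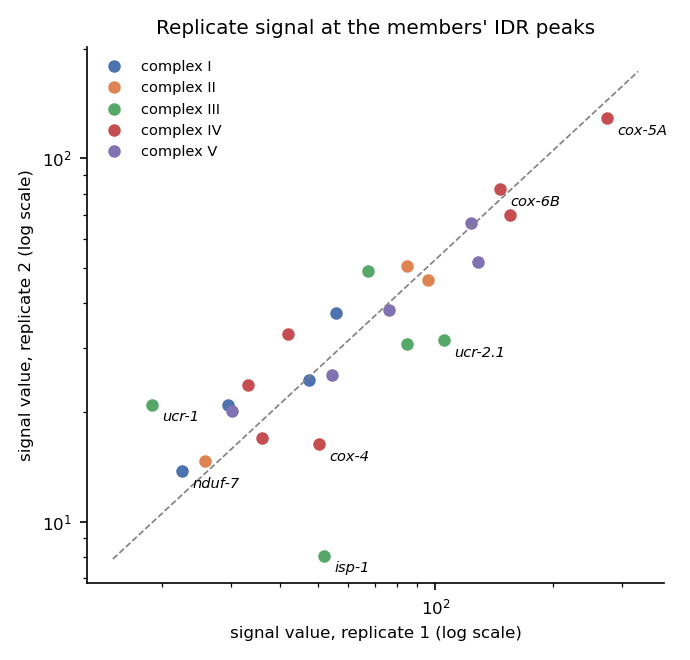
Signal value in replicate 1 (horizontal) and replicate 2 (vertical) at the 24 members' IDR peaks, both on log scales, coloured by complex. The dashed line marks the members' median ratio of 1.90, and isp-1 lies far below it while ucr-1 lies above it.

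The replicates placed the members' peaks in much the same order. All 24 peaks were overlapped by a call in both replicates, as were 98.98% of the 4222 promoter peaks. The IDR threshold favours such overlap by its construction. Of the 24 peaks 21 or 87.5% were overlapped by 1 of the 7446 strongest calls in both replicates, against 80.6% of the 4222 promoter peaks. The 3 exceptions were isp-1, ucr-1 and nduf-7. The ratio of the signal in replicate 1 to that in replicate 2 ran from 0.899 at ucr-1 to 6.46 at isp-1, with a median of 1.90 beside 2.19 over promoter peaks. As these lists are not normalized to each other, the ratio carries their scale. Across the 24 peaks the rank correlation of the replicates' signals was 0.851 (Spearman), a description over peaks of the same pair of libraries.

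The summits sat close upstream of the genes. The median position was 218.5 bp upstream of the nearest start, and that of all genes with a promoter peak was 212 bp upstream. The members were more tightly placed, with 22 of 24 summits or 91.7% in the 500 bp before the start, against 70.7% of all 4681 genes. The lower and upper quartiles of the position were -315.25 and -162.25 bp for the members and -433 and -92 bp for all genes. The 2 summits outside this stretch were those of cox-6A and atp-1.

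**Figure D3:**
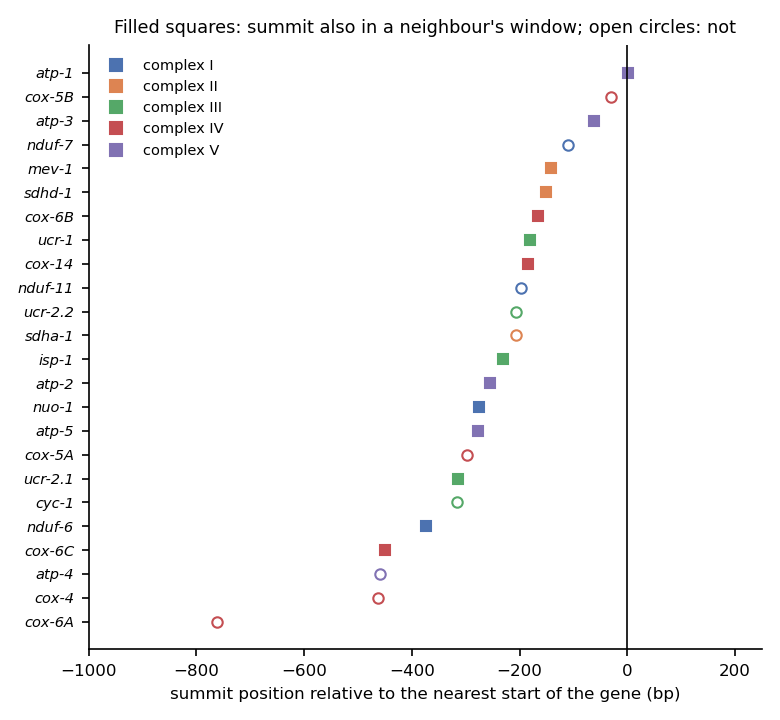
Position of the 24 summits relative to the nearest start of the gene, in bp with upstream to the left, coloured by complex. Filled squares are the 14 summits that also lie in a neighbour's promoter window, and open circles are the other 10.

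Most of the peaks lay near the starts of 2 genes on opposite strands, and such a peak cannot be given to the respiratory chain gene alone. Of the 24 summits 14 or 58.3% were also in the promoter window of a gene on the opposite strand. Over all promoter peaks 20.8% were in the windows of 2 or more genes, and 36.0% of the 4681 genes shared their strongest summit with another gene. In 16 of 24 cases the start nearest to the summit was that of the member, and in 8 that of a neighbour. For the strongest shared peak, at cox-6B, the summit was 88 bp upstream of Y71H2AM.20 and 166 bp upstream of cox-6B. The summit at ucr-2.1 lay 71 bp upstream of nmat-1, and that at atp-5 lay 41 bp upstream of lmtr-3, both nearer than the member. The summit at isp-1 was likewise nearer to islo-1, at 104 bp.

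The genes on the other side were of mixed kind. They included rpl-36.A beside nuo-1, a gene of the cytosolic ribosome, nars-1 beside nduf-6, a gene for a tRNA synthetase, rde-4 beside cox-14, which encodes a double-stranded RNA binding protein of RNA interference, and ddx-15 beside ucr-1, a helicase gene. The remaining pairs were atp-1 with mcrs-1, atp-3 with F27C1.2, atp-2 with C34E10.10 and C34E10.12, mev-1 with jmjd-4, sdhd-1 with ilkp-1, and cox-6C with grld-1. The peaks of cox-5A, cox-5B, sdha-1, cyc-1, ucr-2.2, nduf-11, cox-4, cox-6A, atp-4 and nduf-7 were in the window of no other gene. Of the strongest 3 peaks, then, those of cox-5A and cox-5B are assigned without a rival start.

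The members' peaks held no GATA site near the summit, the most frequent of the patterns searched at promoter peaks. The patterns were counted within 50 bp of the summit on both strands, 7 in all. The AP-1 site, which Fos and Jun dimers bind, was TGACTCA, which reads TGAGTCA on the other strand. The CRE site was TGACGTCA and the E-box, a control, was CACGTG. The GATA site was AGATAA or TGATAA, with AGATAG and with TGATAG as further forms. The extended GATA site was TGATAAG, which contains a form of the GATA site. The repeat GAGAGAG and the word GACGCAGA completed the set. The GATA site was found at 0 of 24 summits (0 to 13.8%), where 50.02% of the 4222 promoter peaks held it. The extended GATA site was also at 0 of 24, against 21.5%. The AP-1 site was at 0 of 24, against 3.51%. The CRE site, the E-box and the repeat GAGAGAG were at 0 of 24 as well, against 0.947, 3.81 and 8.93% of promoter peaks. At shares as low as these, few or none would be counted among 24 windows. GACGCAGA was at 1 summit, that of ucr-1, or 4.17%, beside 5.85%. Of the 24 windows 23 or 95.8% (79.8 to 99.3) held none of the 7 patterns, against 37.4% of promoter peaks. As the GATA site alone was at 50.02% of promoter peaks, this contrast largely repeats the GATA count. The extended GATA site and GACGCAGA had been picked earlier from a ranking on these same peaks.

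The base composition of the windows differed too. The median G+C content of the members' 101 bp was 51.0%, from 28.7 to 60.4%, and that of promoter peaks 40.6%. The dinucleotide CG occurred a median of 8 times in the members' windows, from 1 to 12, and 4 times in those of promoter peaks. The GATA site is rich in A and T, and its share over all promoter peaks went down with G+C content, from 83.0% of the 996 windows under 35% G+C to 6.32% of the 269 windows at 55% or more. At 50% G+C or more there were 688 promoter peaks, of which 11.9% held a GATA site, and 14 of the members' windows, of which 0 did. Between 40 and 50% G+C there were 9 of the members' windows, none with a GATA site, where promoter peaks held one at 44.4% (40 to 45% G+C) and 24.6% (45 to 50% G+C). The window of nduf-6 was the only one of the members under 35% G+C. How far base composition accounts for the count of 0 was not tested.

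**Figure D4:**
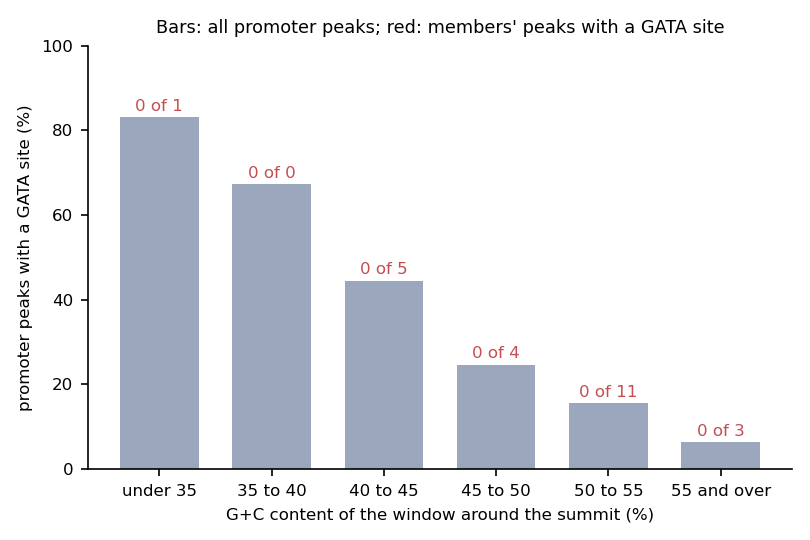
Share of all promoter peaks with a GATA site within 50 bp of the summit, in percent, by the G+C content of that window. Red labels give the members' peaks with a GATA site out of those in each class, which are 0 in every class, and 14 of the 24 windows are at 50% G+C or more.

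A GATA site was present farther from some of the summits. Within 100 bp it was found at 3 of 24 peaks (cyc-1, atp-5 and sdha-1), against 63.1% of promoter peaks, and anywhere in the peak at 6 of 24, against 72.6%. At a distance of 300 bp from the members' summits, upstream and downstream, 8 of 48 windows of equal width or 16.7% held one. The count of 0 thus holds for the bases within 50 bp of the summit only.

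All words of 6 bases were ranked by the difference between their share of the members' windows and of all promoter windows, counting each word with its reverse complement. The first was AAACGC, at 8 of 24 windows or 33.3% against 8.65%. It was found in the windows of cox-5A, cox-6B, cyc-1, ucr-2.2, sdha-1, nduf-11, atp-4 and atp-5, which belong to all 5 complexes. The next were GCCAAA and GGCGCA, each at 6 of 24, against 4.67 and 5.76%. At promoter peaks with at least 50% G+C the shares were 13.5, 5.38 and 13.2% for the 3 words. The members' shares are over all 24 windows, of which 14 have at least 50% G+C. In sdha-1 the last 2 words overlap, in the run TGCGCCAAA printed above, and mev-1 has GGCGCA on both strands. The words were picked on the windows in which they are counted, so the counts describe these 24 peaks only.

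The word TGACGCA, which overlaps the pattern GACGCAGA in part, was noticed when the sequences were read. It was at 3 of 24 summits (12.5%), those of cox-5A, mev-1 and ucr-2.2, against 2.53% of promoter peaks and 3.63% of those with at least 50% G+C. Its first 5 bases, TGACG, were at 7 of 24 or 29.2%, against 19.3% of promoter peaks and 21.7% of those with at least 50% G+C. Both counts for the members are over all 24 windows, not only those with at least 50% G+C. In the sequence of cox-5A the word can be read as tgacgcataa and in that of mev-1 as tgacgcatct, while in ucr-2.2 it is on the other strand.

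The 22 genes without an IDR peak were of unequal standing. A relaxed pooled call was in the window of 14 of them, with signals from 6.75 to 32.7. gas-1 was the highest, with a pooled signal of 32.7 at rank 7686, just under the lowest IDR peak at 33.9; it had 27.1 in replicate 1, where it was among the strongest 7446, and 6.59 in replicate 2, where it was not. cox-7C followed at 31.9, with 17.6 and 12.8 in replicates 1 and 2, then nuo-6 at 27.03, with 19.5 and 5.68. nduf-2.2 had a pooled signal of 16.95, with 16.005 in replicate 1 and no call in replicate 2. nduf-9 had 15.8, with 7.48 and 7.21 in replicates 1 and 2. Just inside the threshold stood nduf-7 at 36.4 and sdhd-1 at 40.6. The summit at cox-6A, 762 bp upstream, was the member's summit nearest to the outer edge of the window, and an IDR summit 1015 bp upstream of nduf-2.2 lay just outside it.

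No relaxed pooled call was found at the other 8, cox-16, cox-17, cox-18, cox-19, nuo-2, nuo-5, sdha-2 and ucr-2.3. nuo-2, which encodes a core subunit of complex I, had calls in both replicates with no pooled call over them, at a signal of 21.3 in replicate 1 and of 11.5 in replicate 2, the latter among the 7446 strongest. Over the genome, 7056 calls of replicate 1 that shared its highest −log10 q-value overlapped such a call of replicate 2, and 24 of these were overlapped by no pooled relaxed call.

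Some of the members sit close behind another gene on the same strand. In C. elegans such neighbours are often transcribed together as an operon from a promoter ahead of the first gene, though operons were not annotated in the gene models used here. Of the 16 members with a gene on the same strand ending within 500 bp upstream, 5 had a peak of their own (31.3%, 14.2 to 55.6), and of the 30 without one, 19 did (63.3%, 45.5 to 78.1). Over all genes these shares were 16.1 and 25.1%, and neither difference was tested. Of the 11 members in such a row that lacked a peak, 6 stood behind a first gene with one. These first genes were lin-54 ahead of cox-11 (signal 185), dad-1 ahead of ucr-11 (133), Y55F3AR.2 ahead of cox-18 (116), syf-2 ahead of nuo-4 (109), rpn-9 ahead of cox-15 (49.96) and Y45G12B.2 ahead of nuo-5 (45.6). Among all 3114 genes in such a row without a peak of their own, the first gene had one for 34.0%. Counting the peaks of first genes, 30 of the 46 members or 65.2% had a peak at their own start or at that of the row, against 28.7% of all genes.

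**Figure D5:**
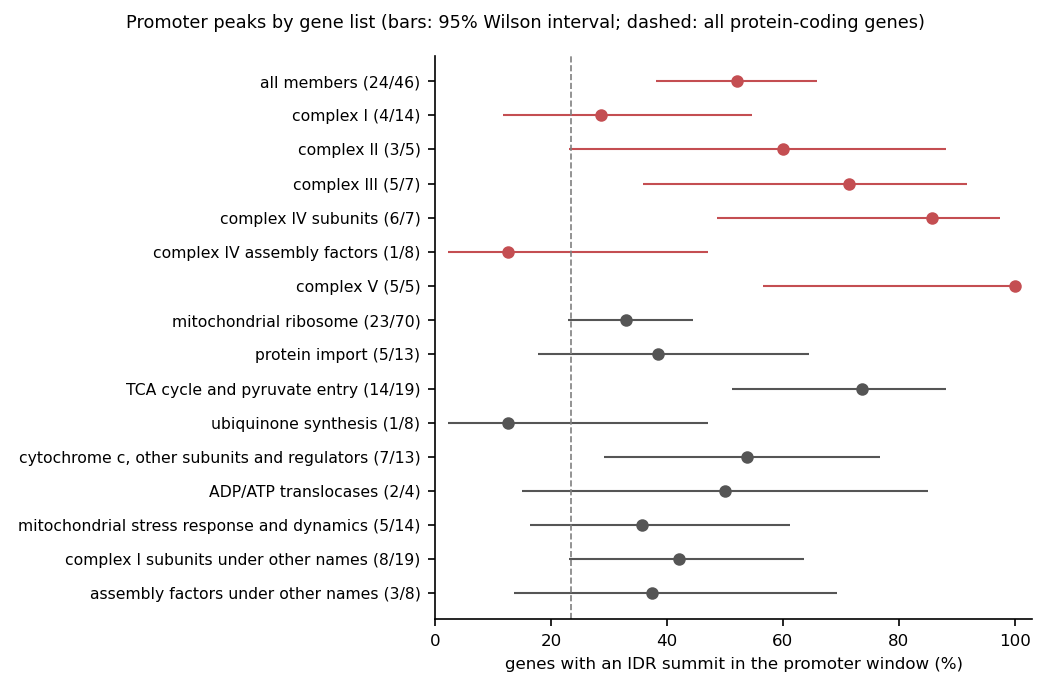
Share of genes with an IDR summit in the promoter window, in percent, for the members by complex (red) and for lists of other mitochondrial genes (grey), with 95% Wilson intervals. The dashed line is the 23.4% of all protein-coding genes, and the citric acid cycle list, at 14 of 19 genes, lies above it while the ubiquinone list, at 1 of 8, lies below it.

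Lists of other genes of the organelle had shares above and below that of all genes, and the differences between lists were not tested. The citric acid cycle with the entry of pyruvate, which supplies the chain with NADH and succinate, had a peak at 14 of 19 genes (73.7%, 51.2 to 88.2). Its highest signals were at sucl-1, a gene for a subunit of succinyl-CoA ligase, with 145, dld-1, the dihydrolipoamide dehydrogenase gene, with 136, and cts-1, the citrate synthase gene, with 117. Ubiquinone synthesis, which makes the carrier between complexes I or II and III, had 1 of 8 (12.5%, 2.24 to 47.1), coq-1, with a signal of 84.0, and clk-1 had none. The mitochondrial ribosome, which translates the subunits encoded in the organelle, had 23 of 70 (32.9%). Protein import had 5 of 13, the ADP/ATP translocases 2 of 4, and the mitochondrial stress response and dynamics 5 of 14.

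A mixed list of cytochrome c, further ATP synthase subunits and regulators, and some assembly factors had a peak at 7 of 13 genes (53.8%, 29.1 to 76.8), near the share of the members. They included sco-1, a copper chaperone gene of complex IV, with a signal of 140, asg-2 with 110 and asb-2 with 100.1, both for ATP synthase subunits, and the cytochrome c gene cyc-2.1 with 87.7. asb-1, a paralog of asb-2, and cyc-2.2, a paralog of cyc-2.1, had none, while asg-1, a paralog of asg-2, had a signal of 35.4. In the stress response list the chaperone genes hsp-60 and hsp-6 had signals of 114 and 87.7, and atfs-1, which encodes the transcription factor of the mitochondrial unfolded protein response, had 111. Of 8 assembly factors under other names 3 had a peak, coa-3, coa-4 and coa-5.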

How the data were processed

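FOS-1 occupancy was measured by ChIP-seq in 2 biological replicates of 1 group. The authors deposited peak lists on ce11, with a signal value, a −log10 q-value and a summit position for each call. Per the manifests deposited with them, a relaxed list was made for each replicate and for the pooled replicates, and an optimal list by IDR. All 7446 IDR peaks share a −log10 q-value of 4.25, so calls were ranked by the deposited signal. The aligner is not given in the sources used here, nor is the peak caller. Read depth is unknown, and the control library was not analysed here, nor were the ce10 lists used.

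Summits (counted from 1) were set against Ensembl release 115 gene models, and sequences were read from RefSeq WBcel235, whose chromosomes are long enough for all peaks. Patterns were counted in 101 bp around a summit. Python 3.11.15, pandas 2.3.3, numpy 2.4.6 and scipy 1.17.1 were used, and the assignment of summits to genes was tested on simulated data. Intervals are 95% Wilson intervals and cover counting error only. No test was made, since there is 1 group. The members, lists and alternatives were chosen with earlier results of these data known. Any member with a peak could be named; values for both replicates went to the strongest 3 of each complex, to complexes II and III, and to weak calls of the 5 strongest members without a peak. Other genes were named after their values were seen. Alternatives for the split of complex IV and 2 further gene lists were also added after the data were seen. Of the listed names, lpd-8 matched no gene symbol.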

Additional observations from a re-analysis of the deposited data

How the results depend on the processing

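The count of 24 members with a peak stayed between 16 and 27 in all settings but 1: it was 23 with 500 bp upstream (18.97% of all genes), with no bases downstream (22.4%) or with the outermost start alone (21.7%), 27 with 2000 bp upstream (29.1%), 25 with any base of the peak (24.7%), 16 among the 3723 IDR peaks of higher signal (12.6%) and 16 with each summit given to the nearest start (19.2%). With all relaxed pooled calls it was 38, beside 46.6% of all genes. The 7446 strongest calls of replicate 1 alone gave 23 members (23.2% of all genes), and those of replicate 2 alone gave 25 (22.6%). Per complex they gave 4 to 5 (I), 3 (II), 4 (III), 7 to 8 (IV) and 5 (V). At the 24 IDR peaks the median signal was 55.01 in replicate 1 and 31.2 in replicate 2, on the lists' own scales. Complex I went from 4 to 2 among these 3723 peaks and to 12 with relaxed calls. Complex III went from 5 to 3 among these 3723 peaks and to 3 with the nearest start. Complex IV went from 7 to 11 with relaxed calls and to 4 with the nearest start, which takes away cox-6B, cox-6C and cox-14. Complex V went from 5 to 4 with no bases downstream, among these 3723 peaks and with the nearest start. Why these counts moved was not tested beyond what the settings themselves remove or add. The count of GATA sites went from 0 to 3 within 100 bp and to 6 over whole peaks, and that of GAGAGAG to 1 (nduf-7). No paired analysis was possible because there is 1 group. Lists without reads, small groups of genes and peaks shared with neighbouring genes limit what the shares can show.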
